A study of Mus musculus with 6 samples.

Results

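The peroxiredoxin and thioredoxin system was examined in RNA from mouse neural progenitor cells, isolated from cerebral cortex of CD1 mice at E13.5 and then differentiated. The 10 genes, of 39179 in the deposited table, were chosen by name: Prdx1 to Prdx6, Txn1, Txn2, Txnrd2 and Txnip. Of the 6 libraries, 3 came from cells with stable expression of GFP, a fluorescent protein, and 3 from cells with stable expression of G392E neuroserpin (G392E-NS), and no other genotype or treatment is given. Neuroserpin is a protease inhibitor of neurons and its G392E variant, which causes the dementia FENIB, forms polymers in the endoplasmic reticulum (ER). The title of the series names oxidative stress as its question, and the comparison here asks whether the genes of this peroxide-removing system differ between G392E-NS and GFP cells. The labels do not say whether the replicates were separate cultures or which promoter drove either transgene, so p-values reflect only how much these libraries vary, and that variation may be technical. Wild-type neuroserpin cells were not analysed here.

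Peroxiredoxins are enzymes that reduce hydrogen peroxide and organic peroxides with a reactive cysteine. Most of them are then reduced by thioredoxin, which is itself reduced by thioredoxin reductase with electrons from NADPH. Each compartment has its own set: Prdx1, Prdx2, Prdx6 and Txn1 in the cytosol, Prdx3, Txn2 and Txnrd2 in mitochondria, Prdx5 in mitochondria, peroxisomes and cytosol, and Prdx4 in the ER, where it also passes oxidising equivalents to protein disulfide isomerases. Txnip binds reduced thioredoxin and blocks it, and it also restrains glucose uptake.

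Promoters are shown for the Txnip and Prdx1 genes, because a search of the bases before the start site found a known regulatory motif in each. Sequences were from RefSeq (GRCm38.p6), and each window held the 250 bases before the start. The set used had an entry for 9 of the 10 genes, all but Prdx6, whose promoter was therefore not searched. Capitals mark the motif. In Txnip it is the carbohydrate response element (CACGNG and CNCGNG with 5 bases between), through which glucose-sensing factors act, on the plus strand and beginning 85 bases before the start. In Prdx1 it is the core of the antioxidant response element (TGACNNNGC), the site of NRF2, on the minus strand, so that the capitals are its complement read backwards, and reaching 133 bases before the start. The 55 bases that GENCODE places inside Prdx1 were left out of the printed sequence.
Txnip (chr3:96557707-96557956, plus strand): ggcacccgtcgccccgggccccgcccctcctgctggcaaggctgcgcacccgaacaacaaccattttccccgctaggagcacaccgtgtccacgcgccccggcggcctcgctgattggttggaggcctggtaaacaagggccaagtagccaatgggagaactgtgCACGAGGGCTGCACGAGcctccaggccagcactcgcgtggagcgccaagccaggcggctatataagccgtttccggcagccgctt
Prdx1 (chr4:116685349-116685543, plus strand): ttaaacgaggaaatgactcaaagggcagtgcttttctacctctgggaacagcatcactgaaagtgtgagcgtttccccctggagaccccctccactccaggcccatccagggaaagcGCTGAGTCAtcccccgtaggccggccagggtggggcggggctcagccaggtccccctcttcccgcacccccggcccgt
Over all 32851 windows of this length and on both strands, 0.280% held the carbohydrate response element and 10.2% the antioxidant core, so the second motif is common. The ER stress response element (CCAAT and CCACG with 9 bases between), held by 0.113% of windows, had no match in the 9 windows. The window of Prdx4 was among those searched, but it lies inside the gene as GENCODE draws it. The motifs do not overlap each other, and a match is a description of letters and not a measured site.

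The libraries held 15507487 to 24835835 counts, and levels are given as counts-per-million values (CPM) scaled between libraries. Neural progenitor markers were at a summed 4290 to 4979 in GFP and 4247 to 5044 CPM in G392E-NS. Of these 6, Nes was called lower, at 474 ± 55.8 in GFP and 278 ± 66.4 CPM in G392E-NS, and 0 were called higher. Of all genes tested 1.36% were called lower, and Nes lost its call in 8 of 15 alternative settings. Neuron markers were at 3237 to 3727 and 3020 to 4180 CPM, mostly from Map2, at 2750 ± 127 in GFP and 2631 ± 400 CPM in G392E-NS. Stmn2 and Nefl were below 1 CPM in every library and were not tested. None of the 6 neuron markers tested was called, beside 6.15% of all genes, with 4 log2 fold changes above 0 and 2 below. Syt1 and Snap25 were higher in G392E-NS without overlap, a property of 28.6% of all genes tested. Oligodendrocyte lineage markers stood at 3220 to 3901 and 2762 to 5051 CPM, mostly from Olig1 and Olig2 (2031 ± 409 and 1042 ± 59.1 CPM in GFP). Of these 8, Pdgfra and Mog were called higher and 0 lower, beside 4.79% of all genes called higher. Mog was close to the floor, with 4, 6 and 3 counts in GFP and 26, 33 and 9 in G392E-NS replicates 1 to 3. The 8 astrocyte markers summed to 3263 to 4678 in GFP and 7445 to 12448 CPM in G392E-NS libraries, highest in G392E-NS replicate 2, and 3 of the 8 were called higher, beside 4.79% of all genes tested. Microglial, endothelial and mesenchymal markers summed to at most 3.48 CPM in any library, and C1qa, Csf1r, Cdh5, Cldn5, Dcn and Lum had no counts. The mouse neuroserpin gene Serpini1 did not pass the test (4.69 ± 0.483 in GFP and 5.72 ± 0.924 CPM in G392E-NS, mean ± SD, n = 3 each, adjusted p = 0.419), and the species of the introduced gene is not given, so the construct itself could not be checked.

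None of the 10 genes passed the test in either direction (edgeR quasi-likelihood test, threshold 0.05 after adjustment over 13775 genes). Of all genes tested 6.15% were called, 4.79% higher and 1.36% lower in G392E-NS. All 10 passed the low-count filter. At an unadjusted p under 0.05 there were 2, Prdx6 and Txnrd2, against 22.4% of all genes tested. These were also the 2 genes whose groups did not overlap, a property of 28.6% of all genes tested, so neither share stood above the background. The log2 fold change of G392E-NS over GFP was above 0 for 7 genes and below 0 for Prdx2, Txn1 and Txnip. Its median was 0.09, beside −0.0047 over all genes tested. By compartment, the median was 0.32 for the 3 cytosolic peroxiredoxins (−0.09 to 1.21) and 0.14 for the 4 mitochondrial genes Prdx3, Prdx5, Txn2 and Txnrd2 (0.02 to 0.38), and Prdx4 in the ER had 0.08. For Prdx2, Prdx3, Prdx5, Txn2 and Prdx4 the 95% interval of the fold change lay within 1.5-fold in both directions, so a change beyond 1.5-fold lay outside the intervals of these 5 genes. For Prdx1, Prdx6, Txnrd2, Txn1 and Txnip the interval reached past 1.5-fold.

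**Figure D1:**
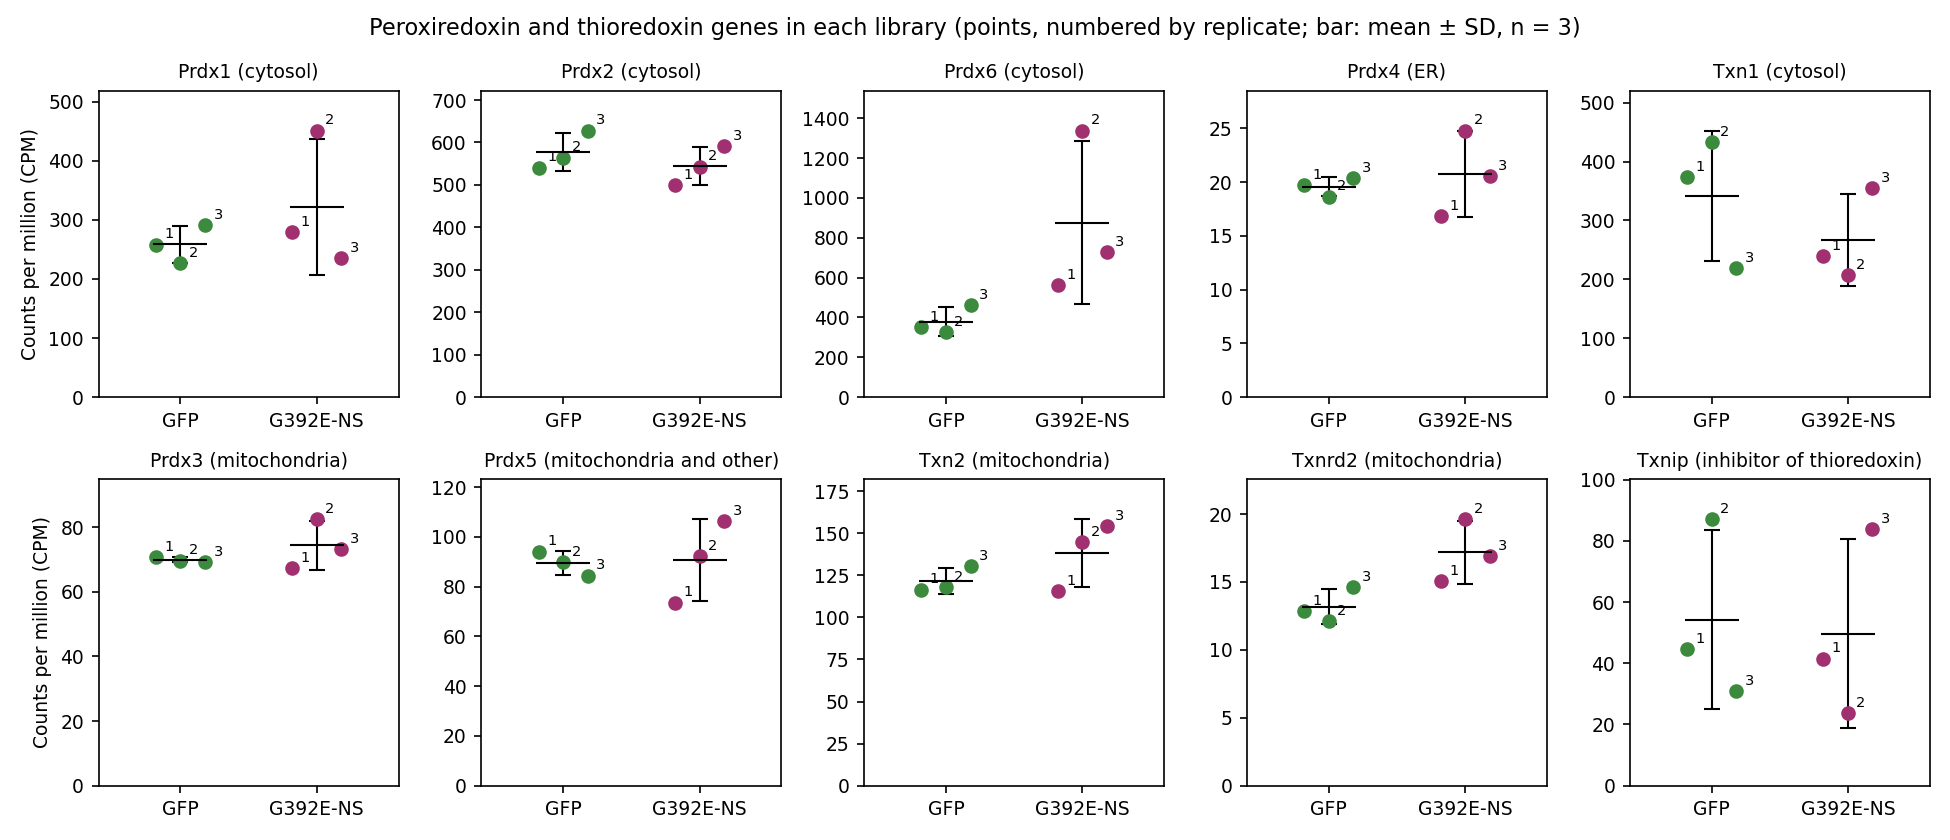
Level of each of the 10 genes in CPM (y axis, from 0) in the 3 GFP and 3 G392E-NS libraries; points are libraries numbered by replicate and bars are mean ± SD. Prdx6 and Txnrd2 show no overlap between the groups, and the 3 G392E-NS libraries of Prdx6 sit between 562 and 1338 CPM.

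**Figure D2:**
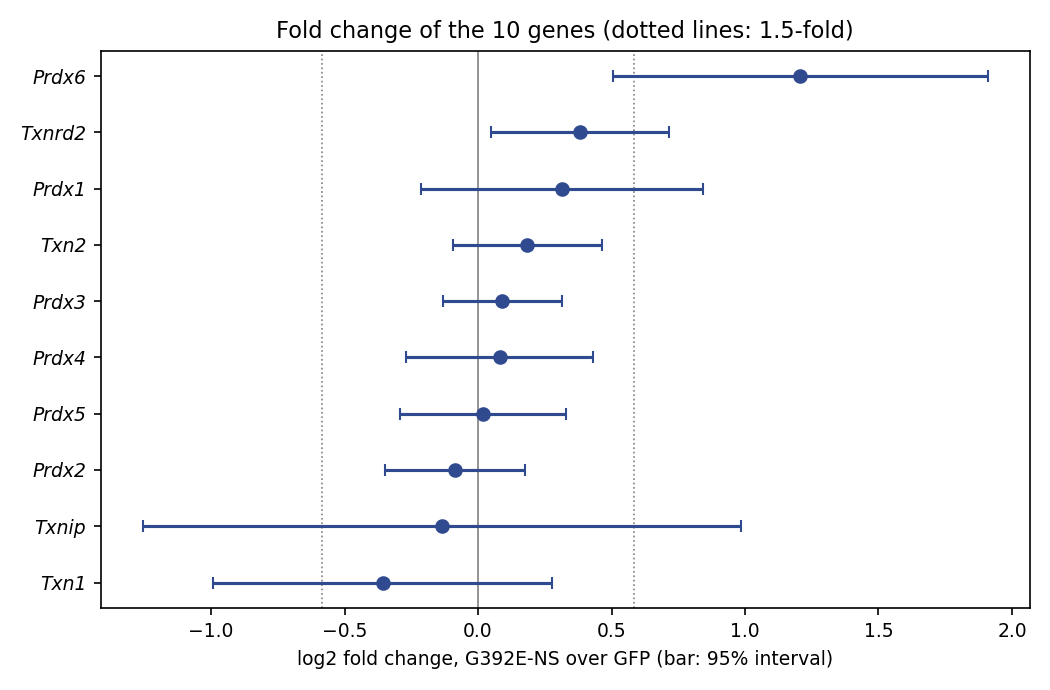
Log2 fold change of G392E-NS over GFP for the 10 genes (x axis), with bars for the 95% interval of the edgeR fit and dotted lines at 1.5-fold. The interval of Txnip is the widest, from −1.26 to 0.99, and that of Prdx3 the narrowest, from −0.13 to 0.31.

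Per length of exon, Txn1 was the most abundant of the 10 transcripts in GFP libraries at 325 ± 105 RPKM (CPM per kilobase of exon), followed by Prdx2 at 189 ± 14.8 RPKM. Prdx1 (85.01 ± 10.4 RPKM) and Prdx6 (79.0 ± 14.96 RPKM) came next, and their ranges over the GFP libraries overlapped. The mitochondrial genes Prdx3 and Prdx5 had 47.3 ± 0.503 and 41.8 ± 2.28 RPKM. Txn2 had 28.9 ± 1.81 RPKM and Txnip 17.4 ± 9.38 RPKM, with ranges that overlapped. The ER gene Prdx4 had 9.30 ± 0.414 RPKM, and the mitochondrial reductase gene Txnrd2 was the lowest at 2.997 ± 0.296 RPKM. All other neighbours in this order had ranges that did not overlap in GFP libraries. The order depends on the summed exon length used, 1051 bases for Txn1 and 3050 for Prdx2. Without division by length, Prdx2 had 578 ± 45.2 and Txn1 342 ± 111 CPM in GFP libraries. In G392E-NS libraries Prdx6 stood second by its mean level, at 182 ± 85.1 RPKM, beside 179 ± 14.8 RPKM for Prdx2, a difference well within the spread of Prdx6.

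Of the cytosolic peroxiredoxins, Prdx6 had the largest difference. It encodes a peroxiredoxin that relies on glutathione rather than thioredoxin and also acts on phospholipids, and it lies on chromosome 1, 161240112 to 161251219 (ENSMUSG00000026701, GRCm38). Its level was 352, 326 and 461 CPM in GFP replicates 1 to 3 and 562, 1338 and 728 CPM in G392E-NS replicates 1 to 3. Every G392E-NS library was above every GFP library, and G392E-NS replicate 2 was far above the other two. The log2 fold change was 1.21 (SE 0.31, 95% interval 0.50 to 1.91, 2.31-fold), with a p of 0.00409 and an adjusted p of 0.0582 by edgeR's quasi-likelihood test. Without G392E-NS replicate 2 the log2 fold change was 0.77 (adjusted p = 0.0652), and it was 1.42 and passed with G392E-NS replicate 1 left out (adjusted p = 0.0241), a fit that called 9.86% of genes. Prdx6 also passed by DESeq2 (adjusted p = 0.000532), which called 10.5% of genes, and in edgeR with no low-count filter (adjusted p = 0.00123), which called 6.81%. In the other 12 of 15 alternative settings Prdx6 did not pass, with an adjusted p of up to 0.202, reached without GFP replicate 1.

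The summed level of the 8 astrocyte markers moved with Prdx6 across the libraries: 4678, 3263 and 4460 CPM in GFP replicates 1 to 3 and 7445, 12448 and 7814 CPM in G392E-NS replicates 1 to 3. In both quantities G392E-NS replicate 2 was the highest, replicate 3 next and GFP replicate 2 the lowest. The marker Gfap had 0.403, 0.0502 and 0.642 CPM in GFP and 2.99, 26.2 and 2.15 CPM in G392E-NS replicates 1 to 3, and it did not pass (adjusted p = 0.0511). Of the 8 markers only Aqp4, an astrocyte water channel, had a log2 fold change below 0 (−0.14, adjusted p = 0.861, groups overlapping). The part of these markers in the difference of Prdx6 was not tested, and in bulk RNA more cells of a type and more RNA per cell cannot be told apart.

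**Figure D3:**
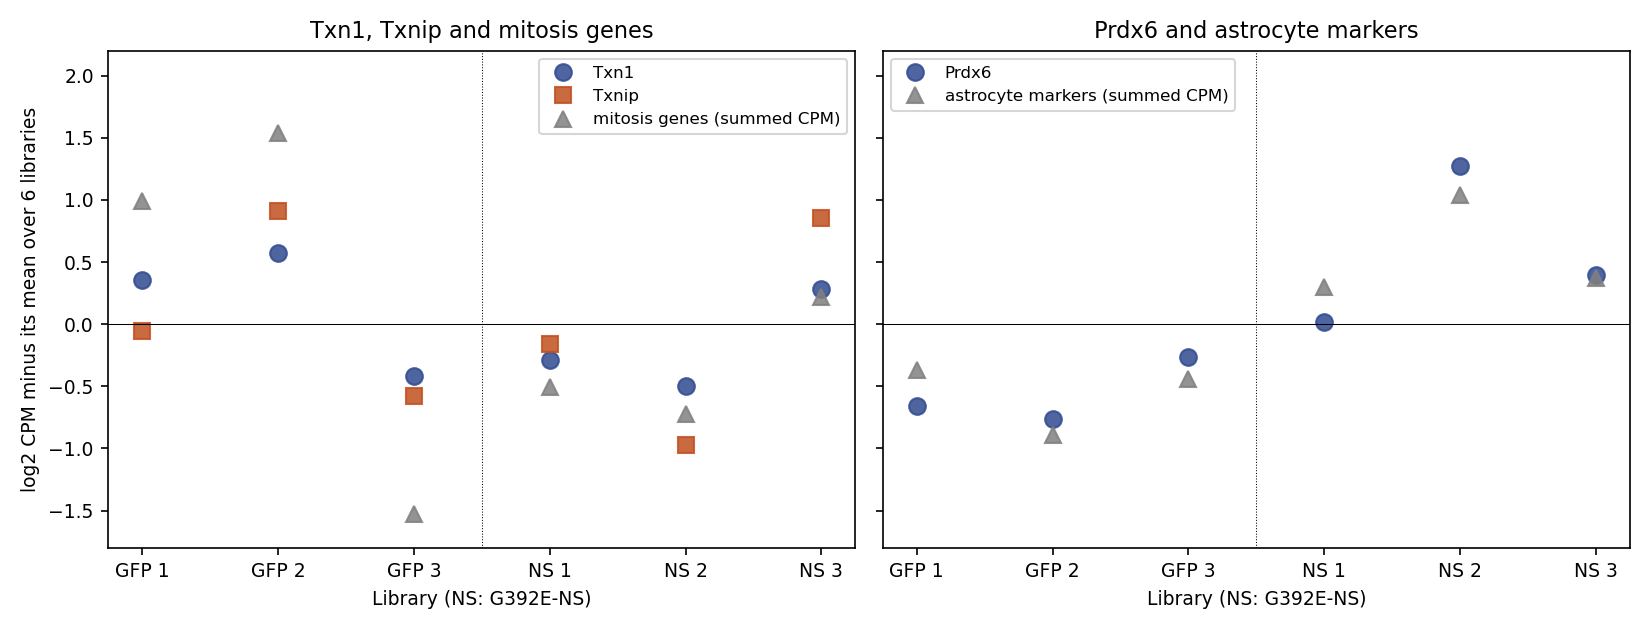
Log2 CPM minus its mean over the 6 libraries (y axis) for each library (x axis; NS is G392E-NS). Left, Txn1, Txnip and the summed mitosis genes, which are high in GFP replicate 2 and low in GFP replicate 3 and G392E-NS replicate 2; right, Prdx6 and the summed astrocyte markers, both highest in G392E-NS replicate 2.

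Prdx1, the major cytosolic peroxide reductase, lies on chromosome 4, 116685544 to 116700822 (ENSMUSG00000028691). It had 258, 227 and 291 CPM in GFP replicates 1 to 3 and 279, 451 and 235 CPM in G392E-NS replicates 1 to 3. The groups overlapped, and G392E-NS replicate 2 alone was above all GFP libraries. Its log2 fold change was 0.32 (SE 0.23, adjusted p = 0.455), and it was −0.0028 without G392E-NS replicate 2. Prdx2, the abundant peroxiredoxin of red cells and neurons (chromosome 8, 84969587 to 84974834), had 541 to 628 in GFP and 500 to 591 CPM in G392E-NS libraries, and its difference of −0.09 on the log2 scale (SE 0.11) did not pass (adjusted p = 0.704).

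Cytosolic thioredoxin and its inhibitor differed more within each group than between the groups. Txn1 (chromosome 4, 57943373 to 57956411) encodes the electron donor of cytosolic peroxiredoxins such as Prdx1 and Prdx2 and of ribonucleotide reductase. It had 374, 433 and 219 CPM in GFP replicates 1 to 3 and 239, 207 and 355 CPM in G392E-NS replicates 1 to 3. Within GFP the highest library was 1.98 times the lowest, and within G392E-NS 1.72 times, so the groups overlapped widely. The log2 fold change was −0.36 (SE 0.28, 95% interval −0.99 to 0.28, adjusted p = 0.481).

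Txnip lies on chromosome 3, 96557957 to 96561883 (ENSMUSG00000038393). Its level was 44.5, 87.1 and 31.0 CPM in GFP replicates 1 to 3 and 41.5, 23.7 and 83.7 CPM in G392E-NS replicates 1 to 3. Each group held 1 library above 80 CPM, and the spread within G392E-NS was 3.54-fold. The log2 fold change was −0.13 (SE 0.49, 95% interval −1.26 to 0.99, adjusted p = 0.901), which became 0.39 with GFP replicate 2 left out, 0.21 with G392E-NS replicate 2 left out and −0.73 with G392E-NS replicate 3 left out. The interval of Txnip is wide enough that these libraries could not show even a moderate difference.

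GFP replicate 2, GFP replicate 1 and G392E-NS replicate 3 were the 3 libraries with the highest Txn1 and also those with the highest Txnip, and G392E-NS replicate 2 was the lowest for both. Because mitotic genes were seen to vary the same way, 14 mitosis genes were then summed, a list chosen after these values were seen. They gave 65.0, 94.8 and 11.3 CPM in GFP replicates 1 to 3 and 23.0, 19.8 and 38.0 CPM in G392E-NS replicates 1 to 3, highest in the same 3 libraries. All 13 mitosis genes tested had a log2 fold change below 0, with a median of −1.15, and none passed (edgeR quasi-likelihood test, smallest adjusted p = 0.232, with 0 at an unadjusted p under 0.05). The part of dividing cells in the levels of Txn1 and Txnip was not tested.

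The ratio of Txnip to Txn1 within a library, which does not depend on scaling between libraries, had a log2 of −2.73 ± 0.384 in GFP and −2.58 ± 0.522 in G392E-NS (n = 3 each). The difference of 0.16 was smaller than the spread within either group (exact permutation test, two-sided, p = 0.8). The ratios of Prdx4 to Prdx1, Prdx3 to Prdx1 and Txnrd2 to Txn2 differed by −0.20, −0.18 and 0.20 on the log2 scale (exact permutation p = 0.4, 0.7 and 0.3). All 4 ratios had an adjusted p of 0.8, and 3 against 3 libraries cannot give a p below 0.1. These tests could therefore not reach the threshold.

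Of the mitochondrial genes, Prdx3 encodes the main peroxidase of the matrix (chromosome 19, 60864051 to 60874556) and had 70.7, 69.7 and 69.3 CPM in GFP replicates 1 to 3 and 67.4, 82.5 and 73.3 CPM in G392E-NS replicates 1 to 3. The G392E-NS libraries lay on both sides of the narrow GFP range, and the log2 fold change was 0.09 (SE 0.10, adjusted p = 0.620). Prdx5 (chromosome 19, 6906697 to 6910106) had 84.4 to 94.1 in GFP and 73.6 to 106 CPM in G392E-NS, ranges centred on nearly the same level (log2 fold change 0.02, SE 0.14, adjusted p = 0.951). Txn2, the mitochondrial thioredoxin (chromosome 15, 77915047 to 77929006), had 116 to 130 in GFP and 116 to 154 CPM in G392E-NS (log2 fold change 0.18, SE 0.12, adjusted p = 0.409).

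Txnrd2, the selenoprotein that reduces Txn2 (chromosome 16, 18426384 to 18479073, ENSMUSG00000075704), had 12.8, 12.1 and 14.6 CPM in GFP replicates 1 to 3 and 15.1, 19.6 and 16.9 CPM in G392E-NS replicates 1 to 3. All G392E-NS libraries were above all GFP libraries, by a small margin between GFP replicate 3 and G392E-NS replicate 1. The log2 fold change of 0.38 (SE 0.15, 95% interval 0.05 to 0.71) had a p of 0.0297 and an adjusted p of 0.172 by edgeR's quasi-likelihood test. It was the least counted of the 10 genes, with 223 to 463 counts per library.

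In the ER, Prdx4 did not pass the test. It had 19.7, 18.7 and 20.4 CPM in GFP replicates 1 to 3 and 16.8, 24.8 and 20.5 CPM in G392E-NS replicates 1 to 3, so that the GFP range lay inside that of G392E-NS. Its log2 fold change was 0.08 (SE 0.15, 95% interval −0.27 to 0.43, adjusted p = 0.794) and −0.07 without G392E-NS replicate 2. Prdx4 is an X-linked gene (chromosome X, 155323918 to 155340754, ENSMUSG00000025289), and the groups differed in Xist, the RNA of X inactivation, at 1.51 ± 0.0831 in GFP and 1494 ± 345 CPM in G392E-NS (adjusted p = 2.47e-06). Of 494 X-linked genes tested 9.11% were called, beside 6.05% of 13119 autosomal genes, with median log2 fold changes of −0.05 and −0.0028. The part of X dosage in the value of Prdx4 was not tested. For every gene given here, the transgene and any other group difference that goes with Xist cannot be told apart.

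**Figure D4:**
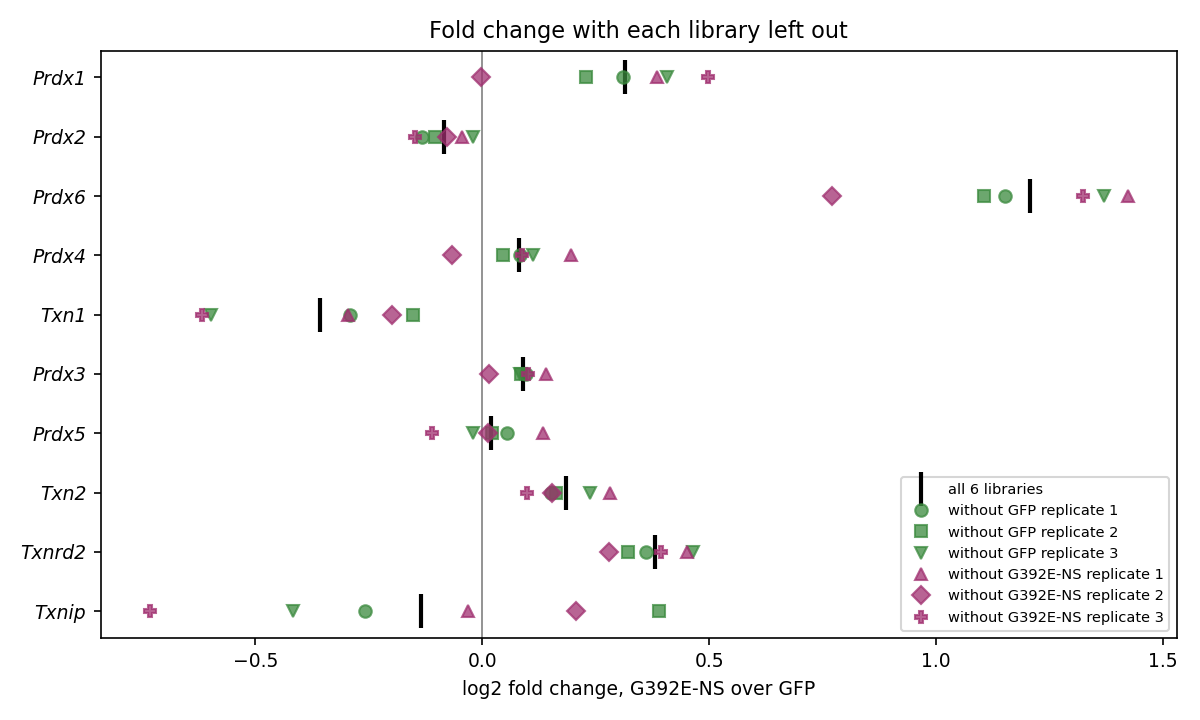
Log2 fold change of G392E-NS over GFP (x axis) for the 10 genes with all 6 libraries (black bars) and with each library left out (symbols). The symbols of Txnip lie on both sides of 0, from −0.73 to 0.39, while those of Prdx6 stay between 0.77 and 1.42.

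Other genes of thiol redox control were taken from a list of 25. Of these 1 was higher and none lower by edgeR's quasi-likelihood test, a share of 4% beside 6.15% of all genes tested, and 8 had an unadjusted p under 0.05, beside 22.4% of all genes tested. The median log2 fold change was 0.14. The called gene was Nnt, the mitochondrial transhydrogenase that supplies NADPH to Txnrd2 (chromosome 13, 119335448 to 119408997). It rose from 57.8, 60.2 and 59.2 CPM in GFP to 74.6, 101 and 82.1 CPM in G392E-NS replicates 1 to 3, a gain of 0.54 on the log2 scale (SE 0.12, adjusted p = 0.0400). All G392E-NS libraries were above all GFP libraries, but Nnt lost its call in 7 of 15 alternative settings, without GFP replicate 1 (adjusted p = 0.163), GFP replicate 2 (0.137), GFP replicate 3 (0.0958), G392E-NS replicate 2 (0.0630) and G392E-NS replicate 3 (0.0666) among them.

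Further partners of the pathway were chosen for description after their values were seen, and none of them passed. Txnrd1, the cytosolic thioredoxin reductase and counterpart of Txnrd2, had 230, 236 and 274 in GFP and 292, 292 and 286 CPM in G392E-NS (log2 fold change 0.23, adjusted p = 0.220). Srxn1, sulfiredoxin, which repairs overoxidised peroxiredoxins, had 29.4, 25.3 and 33.2 in GFP and 23.9, 67.7 and 30.1 CPM in G392E-NS (log2 fold change 0.47, adjusted p = 0.465). Gsr, glutathione reductase, had 26.4, 26.3 and 33.2 in GFP and 35.8, 90.1 and 40.4 CPM in G392E-NS (log2 fold change 0.95, adjusted p = 0.137). G392E-NS replicate 2 was the highest library for Srxn1 and Gsr, as it was for Prdx6, Prdx1, Prdx3, Prdx4, Txnrd2 and Nnt. The 3 partners described here all had a log2 fold change above 0, while the list of 25 had 16 above 0 and 9 below. The lowest of these was Msra, at −0.43, which was not called.

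Of 25 genes of oxidative folding in the ER, where Prdx4 works, 24 were tested and none passed in either direction by edgeR's quasi-likelihood test, which called 6.15% of all genes. At an unadjusted p under 0.05 there were 4, beside 22.4% of all genes, and DESeq2 called 1, beside 10.5% of all genes. Their median log2 fold change was −0.07, with 8 values above 0 and 16 below. Groups did not overlap for 9 of the 24 (37.5%), 3 of them higher and the rest lower, beside 28.6% of all genes tested. The smallest p belonged to Tmx2, a membrane-bound relative of thioredoxin (log2 fold change 0.40, SE 0.10, adjusted p = 0.0511). The oxidase gene Ero1l, which makes peroxide that Prdx4 consumes, had 42.2 ± 4.46 in GFP and 36.9 ± 5.40 CPM in G392E-NS (adjusted p = 0.455). P4hb, the disulfide isomerase that Prdx4 can oxidise, had 355 ± 7.15 and 370 ± 5.08 CPM (adjusted p = 0.741). Ero1l and P4hb were chosen after their values were seen.

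Of 13 genes related to Txnip, among them its arrestin relatives, its regulators and glucose transporters, 12 were tested. By edgeR's quasi-likelihood test 2 were higher, a share of 16.7% beside 6.15% over all genes tested. Slc2a3, the neuronal glucose transporter GLUT3 (chromosome 6, 122727809 to 122801640), rose from 7.31, 7.03 and 6.89 CPM in GFP to 21.1, 15.5 and 17.5 CPM in G392E-NS replicates 1 to 3 (log2 fold change 1.35, SE 0.15, adjusted p = 0.00279), and it kept its call in all 15 alternative settings. Ddit4, a stress-induced mTOR inhibitor that forms a complex with Txnip, rose by 0.39 (SE 0.09, adjusted p = 0.0436), from 80.6 ± 1.69 to 106 ± 8.58 CPM, a call lost in 9 of 15 settings, 5 of them with a library left out: GFP replicate 1 (0.161), 2 (0.196) or 3 (0.107), or G392E-NS replicate 2 (0.0940) or 3 (0.0715). The glucose transporter genes Slc2a1 and Slc2a4, also on the list and named after their values were seen, did not pass, and their groups overlapped. Their log2 fold changes were 0.29 and −0.21 (adjusted p = 0.395 and 0.868), and Slc2a4 was below 1 CPM in every library. At an unadjusted p under 0.05 there were 7 of the 12 genes tested, beside 22.4% of all genes tested. Groups did not overlap for 8 of the 12, 5 of them higher, beside 28.6% of all genes tested. The regulator genes Mlxip and Mlx, named after their values were seen, were lower without overlap and were not called. Their log2 fold changes were −0.25 and −0.26. None of the 4 other arrestin relatives of Txnip on the list passed, and they were named after their values were seen. Arrdc1, Arrdc2 and Arrdc3 had log2 fold changes of 0.87, 0.49 and 0.64 with no overlap between the groups (adjusted p = 0.164, 0.0868 and 0.153). Arrdc4, the closest relative of Txnip and, like it, a target of the glucose sensor MondoA, had 46.8 ± 10.2 in GFP and 40.8 ± 3.68 CPM in G392E-NS, with overlap (log2 fold change −0.20, adjusted p = 0.5002).

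**Figure D5:**
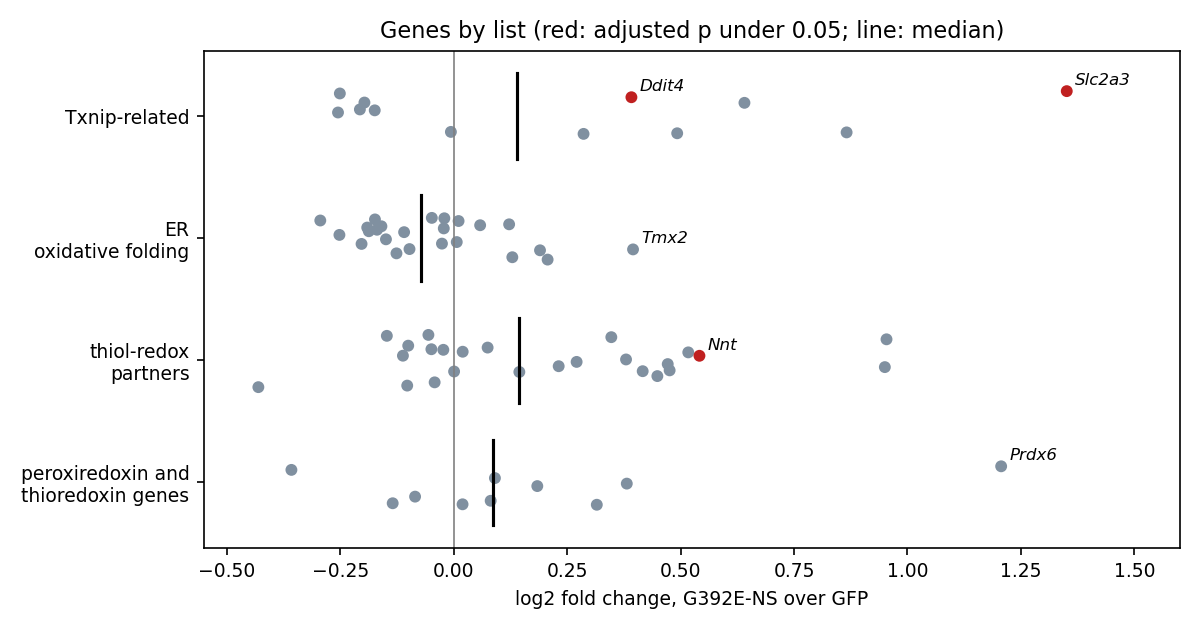
Log2 fold change of G392E-NS over GFP (x axis) of each gene tested, for the 10 peroxiredoxin and thioredoxin genes and the 3 related lists; red points passed an adjusted p under 0.05 and the lines are medians. Nnt, Ddit4 and Slc2a3 are the called genes, and the medians lie between −0.07 and 0.14.

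Several of the 10 genes share sequence with others, which bears on their counts since the strand setting is not given in the sources used here. Txnip shares 606 exon bases with the antisense gene Gm15441, which had 10 counts over all libraries against 6073 for Txnip. Prdx5 shares 409 exon bases with Trmt112 (1018 counts against 10972), and Prdx2 shares 173 with Junb and 177 with Rnaseh2a (163 and 2836 counts against 69217). Of the stretches of 50 bases in each gene's transcripts, 15.7% of Txnip, 15.5% of Prdx5, 12% of Prdx2 and 8.81% of Prdx1 were also found in another gene. The shares were 2.72% for Txnrd2, 2.5% for Txn1 and 0.908% for Txn2. For Prdx1 the other genes included the processed copies Gm21399 and Gm7204 (11 and 10 counts). Prdx6 shared 0.156%, and its copy Prdx6b had 18 counts against 79616. Prdx3 and Prdx4 shared none.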

How the data were processed

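The deposited table holds raw counts per Ensembl gene and library, made by the authors. GRCm38, DESeq2 1.4.5, R 3.2.2, HTSeq 0.6.1 and TopHat2 2.0.12 are listed in the submitters' processing notes, with no role for each. For strand setting, annotation release and filters, nothing is given in the sources used here. Groups were taken from the labels, and 37693 of 39179 IDs had a symbol in GENCODE M21 (GRCm38).

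Counts were tested with edgeR 4.0.16 in R 4.3.3: filterByExpr (13775 genes kept), TMM scaling, a quasi-likelihood F test without covariates, and Benjamini-Hochberg adjustment over all genes tested, at 0.05. Intervals (95%) are from that fit. CPM values use the TMM factors, and RPKM divides them by summed exon length. Ratios within a library used counts plus 0.5. The tests were tried on simulated counts. As alternatives, DESeq2 1.42.0, limma-voom (limma 3.58.1), scaling by RLE, by upper quartile or by total counts, 2 other filters, a replicate block, scaling without X and Y genes, a pseudocount of 5, and leaving out each library were run.

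The members and lists were chosen with earlier results of these data known. The text names the 10 members, up to 5 called genes of each of 3 related lists or else the one with the smallest p, Xist, some markers, and genes that overlap or copy a member, not all of which are reported here. Nes and Tubb3, also in the rule, had log2 fold changes of −0.77 (adjusted p = 0.0480) and 0.33 (adjusted p = 0.364). No replicate pair was a duplicate (chi-square per degree of freedom 8.02 to 56.4).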

Additional observations from a re-analysis of the deposited data

How the results depend on the processing

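Of 512 values recomputed under an alternative, 421 kept their direction and side of the threshold, or stayed within 1.5 times for counts. With each library left out in turn, the log2 fold change ranged from −0.0028 to 0.50 for Prdx1, 0.77 to 1.42 for Prdx6, −0.11 to 0.13 for Prdx5, −0.066 to 0.20 for Prdx4, −0.73 to 0.39 for Txnip, −0.15 to 0.42 for Trmt112 and −0.16 to 0.056 for Rnaseh2a. The log2 ratio ranged from −0.091 to 0.43 for Txnip to Txn1 and −0.37 to 0.016 for Prdx3 to Prdx1. The members called higher then ranged from 0 to 1, thiol-redox partners from 0 to 3, ER folding genes from 0 to 1, Txnip-related genes from 1 to 2, and all genes from 196 to 981 higher and 242 to 1373 in either direction, beside 660 and 847 with all 6 libraries. These fits have fewer samples. With total counts only, Prdx5 had −0.043 and 1 Txnip-related gene was called. Upper-quartile scaling called 1 ER folding gene, the DESeq2 fit and the fit with no low-count filter 1 each, and limma-voom 0 thiol-redox partners and 1 Txnip-related gene. DESeq2 gave 1.20 for Prdx6, 1 member, 3 thiol-redox partners, and 1084 genes higher of 1450 called. With no low-count filter Prdx6 had 1.18, with 1 member, 3 thiol-redox partners, and 1205 genes higher of 1579 called. The causes were not tested. The replicate block left 217 genes higher of 267 called, 0 thiol-redox partners and 1 Txnip-related gene, with Nnt at an adjusted p of 0.0910 and Ddit4 at 0.138. Deviations of same-numbered libraries had correlations of 0.04, −0.42 and −0.27, and those of differently numbered libraries −0.07 to 0.39. With 3 libraries per group these values cannot show whether same-numbered libraries shared a culture or day, which the labels do not state.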
